A study of Homo sapiens and Mus musculus with 29 samples.

Results

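The genes described here are those of drug and xenobiotic metabolism: the enzymes that oxidize, reduce and conjugate foreign compounds, and the pumps that export the products. They were chosen by gene symbol from a list of 50, and a symbol became a member when its gene averaged at least 0.3 RPKM (reads per kilobase of gene, scaled to the depth of the library) over the 21 libraries of HPAF-II cells. That gave 38 members among the 19900 genes at this level or above, of 58719 gene identifiers in the table. They are 8 of the 15 listed cytochromes P450 of families 1 to 3, 4 of 5 cytochromes P450 of family 4, all 6 reductases and dehydrogenases, 6 of 7 UDP-glucuronosyltransferases, 5 of 6 sulfotransferases, 6 of 7 glutathione transferases and 3 of 4 ABC transporters.

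Foreign compounds are cleared in steps. In phase I, cytochromes P450 (CYP) insert oxygen with electrons from POR, while aldo-keto reductases (AKR), the quinone reductase NQO1 and aldehyde dehydrogenases reduce or oxidize carbonyl and quinone groups. In phase II, UDP-glucuronosyltransferases (UGT), sulfotransferases (SULT) and glutathione transferases (GST, MGST) attach glucuronic acid, sulfate or glutathione, and ABC transporters then pump the conjugates out of the cell. These genes are best known from liver and gut, where the receptors AHR, PXR (gene NR1I2) and CAR (NR1I3), the stress-responsive factor NRF2 (NFE2L2, held in check by KEAP1) and the hepatocyte nuclear factors HNF4A and HNF4G govern many of them.

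HPAF-II is a human pancreatic ductal adenocarcinoma line of the classical, epithelial kind. The cells were grown in the pancreas of adult immunodeficient NSG mice and the tumors were taken at the humane endpoint, so that every library is a bulk sample of human cells with some host tissue. The study asked how the nuclear receptor HNF4G and the pioneer factor FOXA1 act in primary and metastatic growth. Primary tumors of 4 groups were sequenced, as 15 libraries: control tumors (Cas-9 with the empty vector, EV; n = 3 mice), FOXA1-OE tumors (Cas-9 with lentiviral FOXA1; n = 3), HNF4G-KO tumors (CRISPR HNF4G KO with EV; n = 4) and HNF4G-KO + FOXA1-OE tumors (CRISPR HNF4G KO with lentiviral FOXA1; 5 tumors of 4 mice, tumors 2 and 3 coming from the same mouse). The control and FOXA1-OE cells thus also carried the Cas9 treatment, and the cells without FOXA1 an empty vector. Metastases were sequenced only for the knockout groups, as 2 peritoneal metastases labeled HNF4G-KO, and 1 spleen metastasis and 3 peritoneal metastases, 2 of them in fat, labeled HNF4G-KO + FOXA1-OE (4 metastases of 3 mice). The knockout is a pool of 3 clones with frameshift mutations made from 1 line, so that differences between clones and effects of the knockout cannot be told apart.

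The labels were checked first against the mRNA of the targeted genes. HNF4G measured 3.47, 2.48 and 2.56 RPKM in the control tumors and 3.04, 2.26 and 0.495 in the FOXA1-OE tumors. It measured 7.10, 8.42, 5.72 and 7.11 in the HNF4G-KO tumors and 7.09, 6.16, 6.67, 3.94 and 1.69 in the HNF4G-KO + FOXA1-OE tumors. It was therefore higher, not lower, in all 4 tumors labeled HNF4G-KO than in the 3 control tumors. A frameshift need not lower an mRNA, and HNF4G protein was not measured here, so that "HNF4G-KO" below is the label of these tumors. FOXA1 measured 0.932, 0.679 and 0.519 RPKM in the control tumors and 6.32, 8.18 and 0.763 in the FOXA1-OE tumors. It measured 1.26, 1.34, 1.36 and 1.87 in the HNF4G-KO tumors and 11.99, 5.75, 23.1, 6.50 and 4.65 in the HNF4G-KO + FOXA1-OE tumors. In FOXA1-OE tumor 3 it lay within the range of the control tumors. In the metastases FOXA1 measured 0.362 and 0.602 RPKM in the HNF4G-KO and 0.535, 17.9, 1.30 and 1.55 RPKM in the HNF4G-KO + FOXA1-OE metastases, so that only 1 of the 4 metastases labeled FOXA1-OE was clearly above the HNF4G-KO tumors.

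Depth was 33.1 to 69.6 M reads per library (mega, median 54.5 M), recovered from the steps of the RPKM values. The most common step was 2 reads in every library, and depth counted in such steps was 16.6 to 34.8 M. FOXA1-OE tumor 3 and HNF4G-KO + FOXA1-OE tumor 5 stood apart from the other tumors of their groups: NFE2L2 measured 4.93 and 9.32 RPKM in them, against at least 19.2 in the other 13 tumors, and the glutathione transferase GSTP1 1528 and 1434 RPKM, against at most 873. Summed over 6 markers of the classical pancreatic cancer type (TFF1, TFF2, CEACAM6, LYZ, CTSE, ANXA10), RPKM was 963 to 1244 in the control tumors, 506 to 1069 in the FOXA1-OE tumors, 2232 to 2907 in the HNF4G-KO tumors and 1366 to 2580 in the HNF4G-KO + FOXA1-OE tumors. Of those 6 markers 4 were called higher in HNF4G-KO than in control tumors. Of 6 enterocyte markers 4 were tested (ALPI and SI lay under the floor), and their list summed to 82.9 to 117 RPKM in control and 157 to 219.8 in HNF4G-KO tumors, with 1 marker called. Of 8 hepatocyte markers 5 lay under the floor (APOA1, APOA2, TTR, TF and CPS1), ALB was at 0 in the control tumors, and the list summed to 109 to 143 RPKM in control and 17.2 to 19.5 in HNF4G-KO tumors, nearly all of it SERPINA1. Markers listed for host tissue also differed: the 8 acinar markers summed to 472 RPKM in control tumor 2 and to at most 31.8 in every other library. The 10 markers of stroma and endothelium, of which DCN, PECAM1 and CDH5 lay under the floor, summed to 88.0 to 212 RPKM in control and 57.1 to 80.3 in HNF4G-KO tumors. Of the 7 tested, 1 differed in the positive direction and 1 was called lower. These are counts of human genes, and whether their reads came from host or tumor cells was not tested. The part of these markers in the results below was not tested, except that the stroma level was entered as a covariate. No member shared more than 0.239% of the 50-base windows of its transcripts with mouse transcripts. Only exact matches were counted, so that this does not cover mouse reads aligned with mismatches.

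The 38 members spanned mean levels from 0.38 RPKM for the sulfotransferase SULT1A2 to 702 RPKM for GSTP1, which only 39 of all genes exceeded. Only 2 members averaged over 100 RPKM (GSTP1 and NQO1), 15 at least 10 RPKM and 28 at least 1 RPKM. After them came AKR1C3 with 72.5 RPKM, ABCC3 with 69.8, AKR1B10 with 42.0, ALDH3A1 with 38.6, CYP2S1 with 33.6, GSTK1 with 33.0 and CYP3A5 with 32.1 RPKM, averaged over the 21 libraries. The highest members of the other classes were the family 4 enzyme CYP4F3 (17.4 RPKM), SULT2B1 (17.6) and UGT8 (10.4). Among cytochromes P450 known from liver, CYP2B6 averaged 22.1 RPKM, but CYP3A4 0.118, CYP2C8 0.0679, CYP2C19 0.168 and CYP1A1 0.0106 RPKM. In these tumors the CYP3A family was therefore represented by CYP3A5, whose mean was the only one of the 4 CYP3A genes above the floor.

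**Figure D1:**
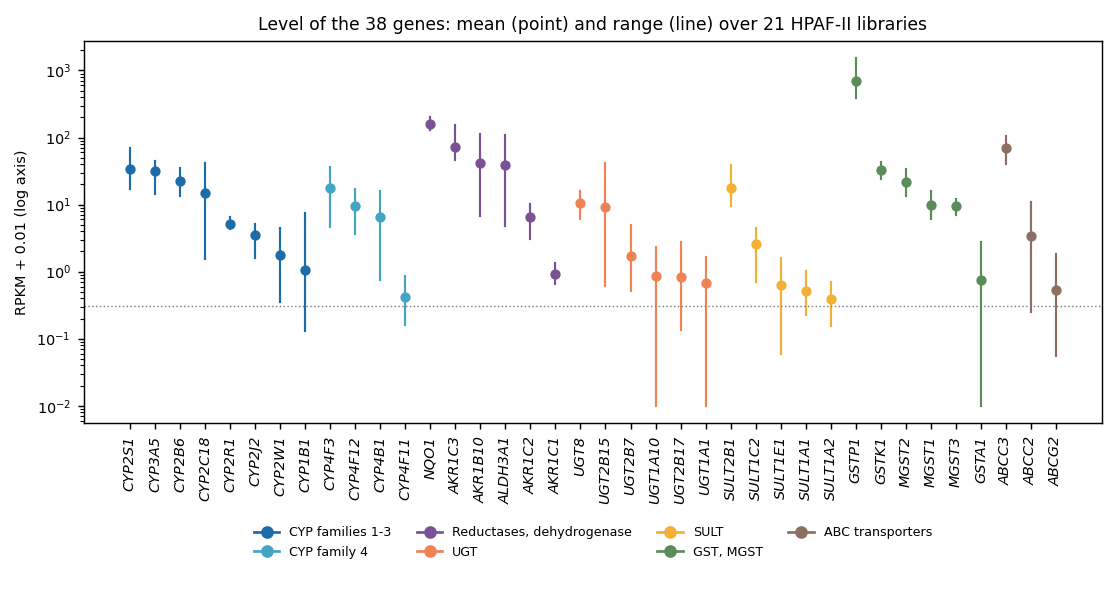
Mean RPKM of each of the 38 genes (points) and its range over the 21 HPAF-II libraries (lines), on a log axis after adding 0.01 RPKM, ordered by class and level; the dotted line marks the 0.3 RPKM floor. GSTP1 stands highest at 702 RPKM, and UGT1A10, UGT1A1 and GSTA1 reach 0 in some libraries.

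The 12 listed symbols under the floor were CYP1A1, CYP2C8, CYP2C19, CYP2U1, CYP3A4, CYP3A7, CYP3A43, CYP4F2, UGT1A6, SULT1B1, GSTA4 and ABCB1, with means from 0.0065 to 0.26 RPKM. Nearest to the floor were CYP4F2 (0.261 RPKM) and CYP2U1 (0.254 RPKM) below it, and SULT1A2 (0.380 RPKM) and CYP4F11 (0.415 RPKM) above it. A pair of these genes, chosen after their values were seen, stood out in 1 group. ABCB1, the drug efflux pump P-glycoprotein, measured 0.0757, 0.0981 and 0.00698 RPKM in the control tumors and 0.0471, 0.0337 and 0 in the FOXA1-OE tumors. It measured 0.0489, 0.0644, 0.0618 and 0.0618 in the HNF4G-KO tumors and 0.0902, 0.0732, 0.706, 0.634 and 1.47 in the HNF4G-KO + FOXA1-OE tumors. CYP2C8, which oxidizes paclitaxel among other drugs, measured 0.0604, 0.0184, 0.150, 0.308 and 0.528 RPKM in the HNF4G-KO + FOXA1-OE tumors and at most 0.046 RPKM in the tumors of the other 3 groups. Both genes were higher in tumors 3, 4 and 5 of that group than in tumors 1 and 2, although tumors 2 and 3 came from the same mouse. In the metastases ABCB1 measured 0.0885 and 0.215 RPKM in the HNF4G-KO and 0.0734, 0.198, 0.0468 and 0.0671 RPKM in the HNF4G-KO + FOXA1-OE metastases.

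The first comparison was of the 4 HNF4G-KO with the 3 control tumors, and here most members differed in the positive direction. In bulk samples such as these, fewer cells of a type and less RNA per cell cannot be told apart. Of 38 members 10 were called higher at an adjusted p under 0.05 and 1 was called lower, where 4.96% of all genes tested were called higher and 4.37% lower. The higher members were CYP2C18, CYP1B1, CYP4F3, CYP4F12, ALDH3A1, AKR1C2, UGT1A10, SULT1C2, GSTA1 and ABCG2, and the lower one was MGST1. GSTA1 and ABCG2 averaged under 0.3 RPKM in both groups without the knockout label and passed the floor only through the libraries in which they were high. They had to differ, and without them 8 members were called higher. UGT1A10, 1 of those 8, averaged 0.474 RPKM in control but 0.0942 RPKM in FOXA1-OE tumors, so that the floor may have favored it as well. The median difference of the members was 0.58 on the log2(RPKM + 1) scale against -0.00 for all genes, and 33 of the 38 differences were positive. For 17 members all HNF4G-KO tumors lay above all control tumors and for 3 all lay below, against 21.9% and 19.2% of all genes. The median and these counts include GSTA1, ABCG2 and UGT1A1. All 3 averaged under the floor in both groups without the knockout label, so that the floor itself favored a positive difference. UGT1A10, SULT1E1 and CYP4F11 averaged under it in the FOXA1-OE but not in the control tumors. The calls depended on the number of mice: leaving out 1 mouse at a time gave 5 to 9 members, with 5 without control tumor 2 and 7 each without control tumor 3 or HNF4G-KO tumors 2, 3 or 4. The number of all genes called fell in the same fits, from 1857 to between 311 and 1173. CYP2C18, CYP4F3, ALDH3A1, SULT1C2 and UGT1A10 stayed past the threshold in every alternative in which they were tested. With the stroma level as a covariate 10 members were called, but not the same ones: MGST1 (adjusted p = 0.0746), CYP4F12 (0.0666) and GSTA1 (0.0601) no longer passed, and UGT2B15 and UGT8 did. In that fit 3891 of the 19900 genes were called, against 1857 without the covariate, so that the share of all genes called rose while the member count did not.

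**Figure D2:**
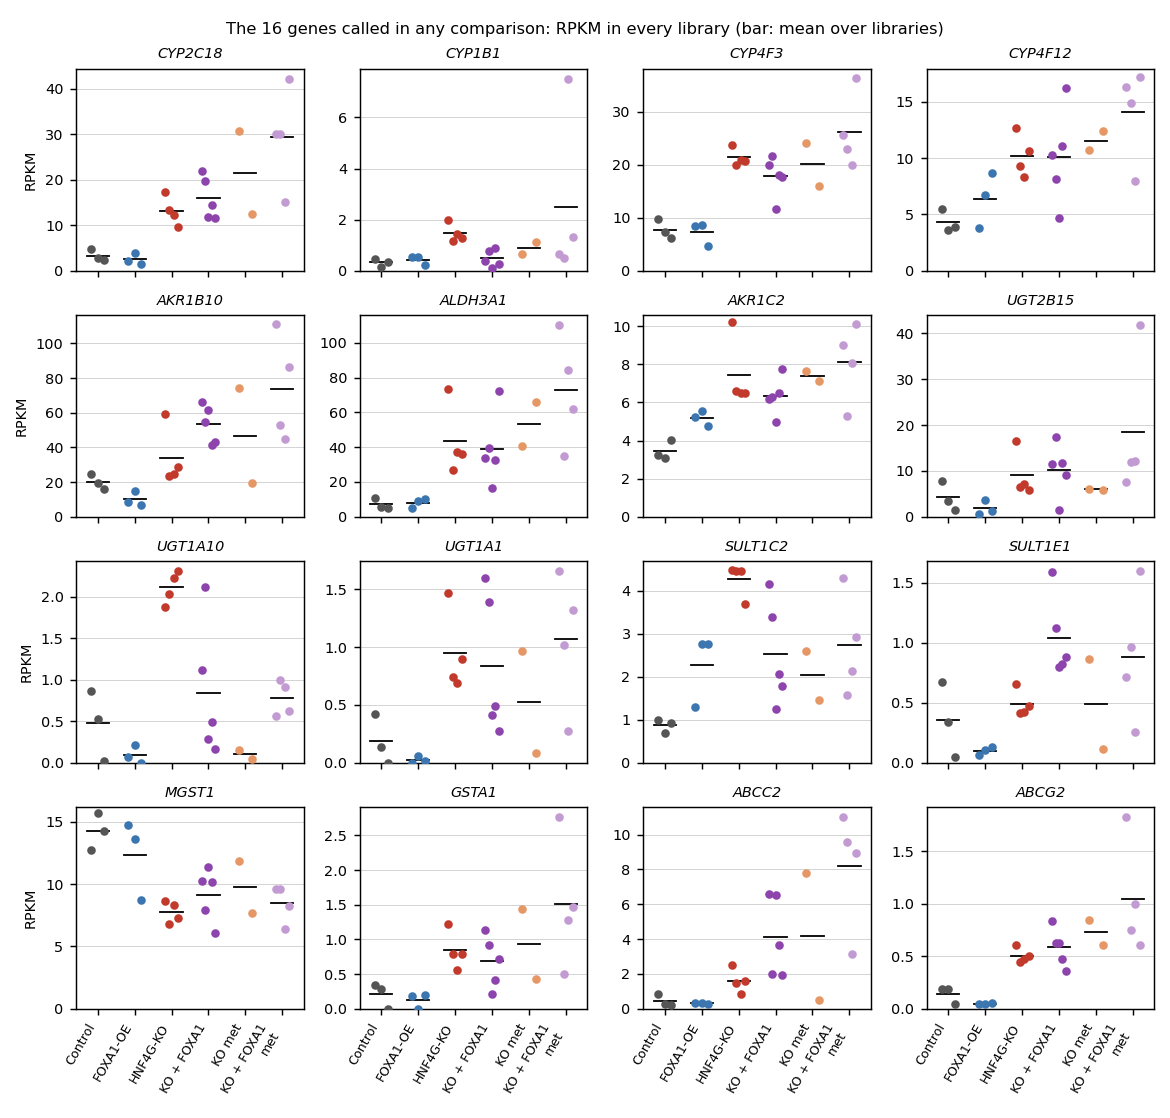
RPKM in every library for the 16 genes called in any of the 8 comparisons, with 1 point per library, 1 column per group (met, metastasis) and a bar at the mean over libraries; axes start at 0. CYP2C18, CYP4F3 and ALDH3A1 sit higher in all 9 tumors labeled HNF4G-KO than in all 6 control and FOXA1-OE tumors, and MGST1 sits lower in the HNF4G-KO tumors.

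Where the start of transcription is known in RefSeq (GRCh38.p14), the bases before it were read for motifs of the factors named above. The promoter table held 39 starts for 27 of the 38 members, and UGT1A10, CYP2C18, CYP1B1, MGST2, AKR1B10, SULT1A1, ABCC3, SULT1A2, ALDH3A1, UGT2B17 and CYP4F12 were not in it. The 250 bases of 3 members that were called higher in a comparison are printed below because they hold a match, which is set in capitals. The motifs searched on both strands were CAAAGNNCA for HNF4, TGTTTAC for forkhead factors such as FOXA1, GCGTG for AHR and TGACNNNGC for NRF2.
ABCC2 (chr10:99782390-99782639, plus strand): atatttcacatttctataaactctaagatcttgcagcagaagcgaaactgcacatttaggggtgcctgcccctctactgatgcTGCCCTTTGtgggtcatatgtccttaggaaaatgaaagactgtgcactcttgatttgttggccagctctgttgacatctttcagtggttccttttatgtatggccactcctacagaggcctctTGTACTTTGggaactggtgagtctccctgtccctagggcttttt
CYP4F3 (chr19:15641062-15641311, plus strand): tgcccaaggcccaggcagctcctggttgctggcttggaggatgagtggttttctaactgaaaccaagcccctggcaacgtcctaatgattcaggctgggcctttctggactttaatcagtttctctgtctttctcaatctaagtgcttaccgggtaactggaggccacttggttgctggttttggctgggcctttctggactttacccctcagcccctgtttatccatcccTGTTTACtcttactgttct
SULT1C2 (chr2:108288645-108288894, plus strand): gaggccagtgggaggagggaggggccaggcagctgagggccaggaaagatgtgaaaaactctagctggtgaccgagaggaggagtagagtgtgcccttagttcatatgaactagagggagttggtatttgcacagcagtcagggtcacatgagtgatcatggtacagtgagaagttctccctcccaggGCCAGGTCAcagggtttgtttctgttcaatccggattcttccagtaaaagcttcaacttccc

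ABCC2 carried 2 matches to the HNF4 letters, beginning 167 and 44 bases before its start. CYP4F3 carried the forkhead letters 19 bases before its start, and SULT1C2 the NRF2 letters at 62 bases. Over 300 bases around all 35116 starts of the table the HNF4 letters were present in 5.28%, the forkhead letters in 3.42%, the AHR letters in 36.5% and the NRF2 letters in 13.3%. Among the 39 starts of members these were 12.8%, 10.3%, 25.6% and 15.4%, which are counts of 5, 4, 10 and 6 starts, several of them neighboring starts of 1 gene. Among the 13 starts of members called higher in any comparison they were 7.69%, 15.4%, 23.1% and 15.4%, or 1, 2, 3 and 2 starts. The 1 start with the HNF4 letters is that of ABCC2, printed above. A match of letters is not a binding site.

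Among the cytochromes P450 of families 1 to 3, the 8 differences between HNF4G-KO and control tumors were all positive and 2 were called. CYP2C18, a skin and gut member of the CYP2C family on chromosome 10 (chr10:94683729-94736190, GRCh38), measured 4.87, 2.80 and 2.30 RPKM in the control tumors and 2.12, 3.89 and 1.52 in the FOXA1-OE tumors. It measured 17.2, 13.4, 12.2 and 9.66 in the HNF4G-KO tumors and 21.99, 19.8, 11.9, 14.4 and 11.5 in the HNF4G-KO + FOXA1-OE tumors. The HNF4G-KO tumors did not overlap with the control tumors, and the difference was 1.73 ± 0.28 (SE, adjusted p = 0.00379) on the log2(RPKM + 1) scale. Its count is uncertain in one respect, since 38.3% of its transcripts' 50-base windows also occur in other genes of the annotation. Its relative CYP2C19 stayed under the floor, with 0.0449, 0.0290 and 0.0103 RPKM in control and 0.256, 0.161, 0.121 and 0.139 RPKM in HNF4G-KO tumors. CYP1B1, an AHR target that oxidizes estradiol and polycyclic hydrocarbons (chr2:38066973-38109902), measured 0.477, 0.151 and 0.341 RPKM in the control tumors and 0.549, 0.526 and 0.227 in the FOXA1-OE tumors. It measured 2.00, 1.17, 1.43 and 1.28 in the HNF4G-KO tumors and 0.361, 0.753, 0.122, 0.903 and 0.281 in the HNF4G-KO + FOXA1-OE tumors. It rose by 0.90 ± 0.16 (SE, adjusted p = 0.00745) in the HNF4G-KO tumors. Reads of CYP1B1 and of its antisense gene CYP1B1-AS1, which shares 8.7% of the windows, may not have been told apart.

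The 2 most abundant enzymes of these families did not pass the test. CYP2S1 measured 26.2, 28.3 and 23.01 RPKM in the control tumors and 19.9, 24.2 and 17.2 in the FOXA1-OE tumors. It measured 36.3, 30.5, 33.4 and 37.7 in the HNF4G-KO tumors and 43.1, 64.8, 28.2, 23.4 and 29.8 in the HNF4G-KO + FOXA1-OE tumors. All HNF4G-KO tumors lay above all control tumors, but the difference was 0.40 ± 0.21 (SE, adjusted p = 0.226). CYP3A5, the CYP3A form of many extrahepatic tissues (chr7:99648194-99679996), measured 25.4, 16.4 and 25.8 RPKM in the control tumors and 23.6, 25.0 and 44.6 in the FOXA1-OE tumors. It measured 39.7, 40.5, 35.6 and 44.7 in the HNF4G-KO tumors and 39.8, 32.3, 14.3, 43.1 and 44.5 in the HNF4G-KO + FOXA1-OE tumors. Here too the HNF4G-KO tumors were all above the control tumors, with a difference of 0.83 ± 0.27 (SE, adjusted p = 0.0721). CYP2J2, which makes epoxides of arachidonic acid, and CYP2W1 were likewise higher in all 4 HNF4G-KO tumors without passing the test, with differences of 0.63 ± 0.23 (SE, adjusted p = 0.0921) and 0.66 ± 0.26 (SE, adjusted p = 0.129). CYP2R1, the vitamin D 25-hydroxylase, ranged only from 4.28 to 6.55 RPKM over all 21 libraries, and CYP2B6 from 13.5 to 34.9 RPKM.

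The family 4 enzymes hydroxylate fatty acids and eicosanoids, and CYP4F2, CYP4F3, CYP4F11 and CYP4F12 lie next to each other on chromosome 19. CYP4F3, the leukotriene B4 hydroxylase (chr19:15640897-15662825), measured 9.82, 7.21 and 6.09 RPKM in the control tumors and 8.48, 8.68 and 4.64 in the FOXA1-OE tumors. It measured 23.8, 19.99, 20.97 and 20.8 in the HNF4G-KO tumors and 19.99, 21.6, 11.7, 18.1 and 17.7 in the HNF4G-KO + FOXA1-OE tumors. The difference between HNF4G-KO and control tumors was 1.38 ± 0.20 (SE, adjusted p = 0.00204), the smallest adjusted p of any member in this comparison. CYP4F12, its neighbor at chr19:15673018-15697174, measured 5.48, 3.59 and 3.88 RPKM in the control tumors and 3.76, 6.69 and 8.72 in the FOXA1-OE tumors. It measured 12.6, 9.30, 8.35 and 10.6 in the HNF4G-KO tumors and 10.3, 8.18, 4.67, 11.1 and 16.2 in the HNF4G-KO + FOXA1-OE tumors. It rose by 1.08 ± 0.29 (SE, adjusted p = 0.0333), with 8.72 RPKM in FOXA1-OE tumor 3 falling inside the range of the HNF4G-KO tumors. The call was lost in 9 of 16 alternatives. The other genes of the cluster were near the floor: CYP4F11 averaged 0.415 RPKM and differed by 0.10 (adjusted p = 0.537), and CYP4F2 averaged 0.261 RPKM. CYP4B1, on chromosome 1, varied widely within groups, from 2.598 to 10.6 RPKM in control and from 7.199 to 15.96 RPKM in HNF4G-KO tumors, with a difference of 0.69 ± 0.47 (SE, adjusted p = 0.363).

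Of the 6 reductases and dehydrogenases 2 were called higher and none lower. ALDH3A1, the aldehyde dehydrogenase of cornea and stomach that detoxifies lipid aldehydes (chr17:19737984-19748943), had the largest difference of all members on the log2(RPKM + 1) scale. In limma-voom on recovered reads, which compresses low levels less, UGT1A10 (3.17) and GSTA1 (3.04) differed more than ALDH3A1 (2.59) on the log2 scale. It measured 10.7, 5.72 and 4.78 RPKM in the control tumors and 4.96, 8.93 and 10.2 in the FOXA1-OE tumors. It measured 73.2, 26.9, 37.2 and 35.8 in the HNF4G-KO tumors and 33.7, 39.4, 16.7, 32.5 and 72.4 in the HNF4G-KO + FOXA1-OE tumors. The lowest HNF4G-KO tumor thus stood above the highest control tumor, and the difference was 2.43 ± 0.39 (SE, adjusted p = 0.00379). AKR1C2, a steroid and carbonyl reductase (chr10:4987775-5018031), measured 3.25, 3.07 and 4.01 RPKM in the control tumors and 5.24, 5.56 and 4.77 in the FOXA1-OE tumors. It measured 10.2, 6.58, 6.47 and 6.50 in the HNF4G-KO tumors and 6.20, 6.30, 4.96, 6.49 and 7.77 in the HNF4G-KO + FOXA1-OE tumors. It rose by 0.91 ± 0.17 (SE, adjusted p = 0.00775). AKR1C1, AKR1C2 and AKR1C3 are adjacent paralogs on chromosome 10, and 35.2% of the windows of AKR1C2 occur in AKR1C1, so that their reads may have been split. AKR1C3, the abundant member of the trio, measured 47.7, 46.5 and 61.0 RPKM in the control tumors and 65.1, 58.0 and 59.3 in the FOXA1-OE tumors. It measured 85.4, 89.6, 75.6 and 63.8 in the HNF4G-KO tumors and 106, 65.1, 71.2, 65.0 and 71.3 in the HNF4G-KO + FOXA1-OE tumors, and its difference of 0.59 ± 0.19 (SE, adjusted p = 0.0669) did not pass. AKR1C1 ranged from 0.649 to 1.36 RPKM and differed by 0.00 (95% confidence interval -0.24 to 0.25, adjusted p = 0.995). NQO1, the quinone reductase, measured 141, 150.2 and 159 RPKM in the control tumors and 187, 136 and 192 in the FOXA1-OE tumors. It measured 176, 165, 153 and 132 in the HNF4G-KO tumors and 173, 128, 137, 147 and 172 in the HNF4G-KO + FOXA1-OE tumors. The groups overlapped and the difference was 0.05 (95% confidence interval -0.33 to 0.44, adjusted p = 0.875). AKR1B10, a retinal and carbonyl reductase (chr7:134527567-134541412), measured 24.7, 19.6 and 15.96 RPKM in the control tumors and 8.52, 14.7 and 6.72 in the FOXA1-OE tumors. It measured 59.4, 23.4, 24.6 and 28.6 in the HNF4G-KO tumors and 66.5, 54.8, 61.7, 41.4 and 43.3 in the HNF4G-KO + FOXA1-OE tumors. In the HNF4G-KO tumors it was high in tumor 1 only, and the difference from control was 0.64 ± 0.32 (SE, adjusted p = 0.216).

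All 6 glucuronosyltransferases differed in the positive direction and 1 was called. Of the 6, UGT1A1 passed the floor only through the libraries in which it was high. The 1 called, UGT1A10, averaged under the floor in the FOXA1-OE tumors. UGT1A10, an intestinal form (chr2:233636448-233773300), measured 0.863, 0.532 and 0.0257 RPKM in the control tumors and 0.0722, 0.210 and 0 in the FOXA1-OE tumors. It measured 1.88, 2.04, 2.22 and 2.31 in the HNF4G-KO tumors and 1.11, 2.12, 0.288, 0.493 and 0.163 in the HNF4G-KO + FOXA1-OE tumors. The difference between HNF4G-KO and control tumors was 1.12 ± 0.22 (SE, adjusted p = 0.0102), and control tumors 1, 2 and 3 differed widely among themselves. UGT1A1, the bilirubin-conjugating form (chr2:233760270-233773300), measured 0.425, 0.134 and 0 RPKM in the control tumors and 0, 0.0569 and 0.0113 in the FOXA1-OE tumors. It measured 1.47, 0.743, 0.687 and 0.900 in the HNF4G-KO tumors and 1.60, 1.39, 0.416, 0.494 and 0.271 in the HNF4G-KO + FOXA1-OE tumors. It was higher in every HNF4G-KO tumor, with a difference of 0.72 ± 0.21 (SE, adjusted p = 0.0523) that just missed the threshold. The UGT1A genes share their last exons, and 76.8% of the windows of UGT1A10 and 49.8% of those of UGT1A1 occur in another gene, so that their levels are uncertain and may not be independent. UGT2B15, which conjugates androgens (chr4:68646597-68670652), measured 7.86, 3.52 and 1.45 RPKM in the control tumors and 0.603, 3.68 and 1.22 in the FOXA1-OE tumors. It measured 16.4, 6.57, 7.08 and 5.92 in the HNF4G-KO tumors and 11.5, 17.3, 1.54, 11.8 and 8.99 in the HNF4G-KO + FOXA1-OE tumors, with a difference of 1.01 ± 0.46 (SE, adjusted p = 0.173). Of its windows 26.7% occur in UGT2B17, which averaged 0.823 RPKM. UGT8, which builds galactosylceramide rather than clearing drugs, measured 11.8, 10.1 and 8.38 RPKM in the control tumors and 9.45, 10.5 and 6.12 in the FOXA1-OE tumors. It measured 11.96, 10.3, 11.1 and 13.1 in the HNF4G-KO tumors and 8.89, 12.4, 8.90, 10.3 and 6.96 in the HNF4G-KO + FOXA1-OE tumors and differed by 0.20 (95% confidence interval -0.22 to 0.61, adjusted p = 0.543). UGT2B7, the morphine-conjugating form, averaged 1.71 RPKM and differed by 0.57 ± 0.23 (SE, adjusted p = 0.13).

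Of 5 sulfotransferases 1 was called. SULT1C2, a stomach and kidney form (chr2:108288639-108309915), measured 1.00, 0.681 and 0.929 RPKM in the control tumors and 1.30, 2.75 and 2.77 in the FOXA1-OE tumors. It measured 4.49, 4.45, 4.45 and 3.70 in the HNF4G-KO tumors and 4.16, 3.39, 1.24, 2.07 and 1.78 in the HNF4G-KO + FOXA1-OE tumors. The HNF4G-KO tumors did not overlap with the control tumors, and the difference was 1.50 ± 0.22 (SE, adjusted p = 0.00237). SULT2B1, the cholesterol sulfotransferase of skin, measured 10.9, 13.2 and 10.6 RPKM in the control tumors and 9.48, 10.2 and 17.4 in the FOXA1-OE tumors. It measured 15.3, 11.7, 14.4 and 14.2 in the HNF4G-KO tumors and 23.4, 16.5, 14.3, 21.7 and 38.7 in the HNF4G-KO + FOXA1-OE tumors, and HNF4G-KO and control tumors overlapped, with a difference of 0.24 (95% confidence interval -0.32 to 0.81, adjusted p = 0.586). SULT1E1, the estrogen sulfotransferase (chr4:69841212-69860145), measured 0.673, 0.340 and 0.0485 RPKM in the control tumors and 0.0654, 0.103 and 0.133 in the FOXA1-OE tumors. It measured 0.651, 0.415, 0.421 and 0.470 in the HNF4G-KO tumors and 1.59, 1.12, 0.796, 0.826 and 0.877 in the HNF4G-KO + FOXA1-OE tumors. Its difference in this comparison was 0.16 ± 0.16 (SE, adjusted p = 0.541). SULT1A1 and SULT1A2, near-identical neighbors on chromosome 16, stayed between 0.145 and 1.00 RPKM in all libraries, with differences of -0.30 and -0.08 (adjusted p = 0.221 and 0.715).

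The glutathione transferases were the only class in which the median difference was not positive (-0.04 on the log2 scale, with 3 of 6 positive). Of the 3 positive ones, GSTA1 passed the floor only through the libraries in which it was high. MGST1, the microsomal enzyme that also reduces lipid peroxides (chr12:16347142-16609259), measured 12.7, 15.7 and 14.3 RPKM in the control tumors and 14.8, 13.6 and 8.70 in the FOXA1-OE tumors. It measured 8.67, 6.80, 8.32 and 7.29 in the HNF4G-KO tumors and 10.2, 7.94, 11.4, 10.2 and 6.08 in the HNF4G-KO + FOXA1-OE tumors. It fell by 0.80 ± 0.20 on the log2 scale in the HNF4G-KO tumors (SE, adjusted p = 0.0281). The call was lost in 7 of 16 alternatives, the stroma covariate among them. GSTP1, a form widely expressed in carcinomas (chr11:67583742-67586656), measured 589.5, 768 and 811 RPKM in the control tumors and 873, 717 and 1528 in the FOXA1-OE tumors. It measured 564, 403, 452 and 491 in the HNF4G-KO tumors and 769, 392, 515, 789.7 and 1434 in the HNF4G-KO + FOXA1-OE tumors. All HNF4G-KO tumors were below all control tumors, but the difference of -0.59 ± 0.35 (SE, adjusted p = 0.292) did not pass. GSTA1, the alpha-class form of liver and gut (chr6:52791371-52803860), measured 0.345, 0.279 and 0 RPKM in the control tumors and 0.179, 0 and 0.199 in the FOXA1-OE tumors. It measured 1.23, 0.785, 0.560 and 0.796 in the HNF4G-KO tumors and 1.14, 0.926, 0.206, 0.417 and 0.720 in the HNF4G-KO + FOXA1-OE tumors. Its difference was 0.61 ± 0.17 (SE, adjusted p = 0.0371), on counts as low as 0 reads in control tumor 3 and FOXA1-OE tumor 2, and 19.7% of its windows occur in GSTA2. The call was lost in 12 of 15 alternatives. GSTK1, the mitochondrial and peroxisomal form, measured 32.3, 28.3 and 31.3 RPKM in the control tumors and 31.5, 41.1 and 43.0 in the FOXA1-OE tumors. It measured 32.0, 27.3, 25.3 and 32.0 in the HNF4G-KO tumors and 38.9, 26.4, 31.4, 33.3 and 40.8 in the HNF4G-KO + FOXA1-OE tumors and differed by -0.07 (95% confidence interval -0.43 to 0.28, adjusted p = 0.802). MGST2 and MGST3 differed by 0.01 (95% confidence interval -0.38 to 0.41, adjusted p = 0.97) and 0.00 (95% confidence interval -0.37 to 0.37, adjusted p = 1).

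All 3 ABC transporters differed in the positive direction and 1 was called. The 1 called, ABCG2, passed the floor only through the libraries in which it was high, so that its direction is no separate support. ABCG2, the breast cancer resistance protein (chr4:88090150-88231628), measured 0.188, 0.192 and 0.0482 RPKM in the control tumors and 0.0452, 0.0465 and 0.0502 in the FOXA1-OE tumors. It measured 0.608, 0.442, 0.472 and 0.498 in the HNF4G-KO tumors and 0.835, 0.630, 0.622, 0.471 and 0.364 in the HNF4G-KO + FOXA1-OE tumors. It rose by 0.40 ± 0.11 (SE, adjusted p = 0.0378), on a scale that compresses levels under 1 RPKM. The call was lost in 9 of 15 alternatives. ABCC2, the pump for glucuronide and glutathione conjugates (chr10:99782640-99852594), whose promoter is printed above, measured 0.866, 0.294 and 0.243 RPKM in the control tumors and 0.314, 0.349 and 0.249 in the FOXA1-OE tumors. It measured 2.50, 1.45, 0.835 and 1.58 in the HNF4G-KO tumors and 6.58, 2.01, 6.51, 3.67 and 1.96 in the HNF4G-KO + FOXA1-OE tumors. Its difference from control was 0.81 ± 0.28 (SE, adjusted p = 0.0811) in the HNF4G-KO tumors, where tumor 3 overlapped with control tumor 1. ABCC3, the basolateral pump for the same conjugates (chr17:50634777-50692253), measured 58.3, 45.1 and 40.9 RPKM in the control tumors and 42.9, 60.7 and 65.5 in the FOXA1-OE tumors. It measured 79.0, 73.8, 74.7 and 87.3 in the HNF4G-KO tumors and 61.7, 68.0, 48.8, 78.2 and 104 in the HNF4G-KO + FOXA1-OE tumors. Every HNF4G-KO tumor lay above every control tumor, and the difference of 0.71 ± 0.22 (SE, adjusted p = 0.0569) missed the threshold.

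For FOXA1 overexpression alone no member passed the test. Against the control tumors none of 38 was called in either direction, as was none of the 19900 genes (0% called). Of the members 4 had an unadjusted p under 0.05 (AKR1C2, AKR1C1, AKR1B10 and SULT1C2), or 10.5% against 5.13% of all genes. The smallest adjusted p was 0.84, and limma-voom on recovered reads called none either. AKR1B10 lay lower in all 3 FOXA1-OE than in all 3 control tumors, with a difference of -0.99 (95% confidence interval -1.73 to -0.24, adjusted p = 0.84). SULT1C2 and AKR1C2 lay higher in all 3, with differences of 0.77 (95% confidence interval 0.27 to 1.28, adjusted p = 0.84) and 0.48 (95% confidence interval 0.10 to 0.87, adjusted p = 0.84). Without FOXA1-OE tumor 3, in which FOXA1 mRNA was at the control level, no member was called.

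FOXA1 overexpression on the HNF4G-KO background was tested next. No member was called between HNF4G-KO + FOXA1-OE and HNF4G-KO tumors, where 0.106% of all genes were, and limma-voom called none. At an unadjusted p under 0.05 there were 10 members (26.3%), against 18% of all genes. CYP1B1 was lower in every HNF4G-KO + FOXA1-OE mouse than in every HNF4G-KO mouse, with a difference of -0.74 (95% confidence interval -1.07 to -0.41, adjusted p = 0.098). So was UGT1A10, with a difference of -0.92 (95% confidence interval -1.35 to -0.48, adjusted p = 0.118). SULT1E1 and SULT2B1 were higher in every mouse, with differences of 0.46 (95% confidence interval 0.14 to 0.77, adjusted p = 0.217) and 0.72 (95% confidence interval 0.20 to 1.25, adjusted p = 0.226). CYP1B1 and UGT1A10 were called when the stroma level was a covariate, and CYP1B1 also without HNF4G-KO + FOXA1-OE tumor 4. A test of the difference between the FOXA1-OE effects with and without HNF4G-KO called no member, with 0.0352% of all genes called. At an unadjusted p under 0.05 there were 7 members (18.4%), against 9.02% of all genes. The smallest unadjusted p was that of SULT1C2, with a difference of effect of -1.39 (95% confidence interval -2.06 to -0.72, adjusted p = 0.262). The largest differences of effect were 1.68 (95% confidence interval 0.69 to 2.66, adjusted p = 0.342) for AKR1B10 and -1.43 (95% confidence interval -2.86 to -0.01, adjusted p = 0.548) for CYP4B1, intervals that exclude 0 before adjustment.

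The HNF4G-KO + FOXA1-OE tumors were also set against both groups without the knockout label. Against the control tumors 10 members were called higher and none lower, where 1.79% of all genes were called higher and 1.9% lower. They were ABCC2, CYP2C18, ALDH3A1, CYP4F3, CYP4F12, SULT1C2, SULT1E1, AKR1C2, AKR1B10 and ABCG2. Against the FOXA1-OE tumors 9 were called higher and none lower, with backgrounds of 2.96% and 3.8%, and these were CYP2C18, AKR1B10, ABCC2, CYP4F3, SULT1E1, ALDH3A1, ABCG2, UGT2B15 and UGT1A1. ABCG2 and UGT1A1 averaged under 0.3 RPKM in both control and FOXA1-OE tumors and passed the floor only through the libraries in which they were high. Without them 9 members were called higher against control and 7 against FOXA1-OE tumors. SULT1E1 is still in both counts. It averaged under the floor in the FOXA1-OE but not in the control tumors, so that the floor may have favored it as well. The comparison with the control tumors shares those tumors with the comparison described first, and both comparisons here share the HNF4G-KO + FOXA1-OE tumors, so that they are not independent of each other. The median difference of the members was 0.43 and 0.27, against -0.03 and 0.00 over all genes. Both medians include ABCG2, UGT1A1 and GSTA1, which all averaged under the floor in control and FOXA1-OE tumors.

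Of these members, CYP2C18 differed by 1.97 ± 0.28 (SE, adjusted p = 0.00385) from control and by 2.28 ± 0.28 (SE, adjusted p = 0.000896) from FOXA1-OE tumors. ALDH3A1 differed by 2.34 ± 0.39 (SE, adjusted p = 0.00671) and 2.16 ± 0.39 (SE, adjusted p = 0.00591), and CYP4F3 by 1.14 ± 0.20 (SE, adjusted p = 0.0089) and 1.23 ± 0.20 (SE, adjusted p = 0.0034). The transporter ABCC2, which averaged 0.468 ± 0.346 RPKM in control and 0.304 ± 0.0510 RPKM in FOXA1-OE tumors (SD, n = 3 mice each), averaged 4.12 ± 1.91 RPKM here (n = 4 mice), and differed by 1.71 ± 0.28 (SE, adjusted p = 0.00585) and 1.86 ± 0.28 (SE, adjusted p = 0.0023). AKR1B10 averaged 20.1 ± 4.41, 9.99 ± 4.20 and 52.4 ± 12.1 RPKM in the same groups and differed by 1.33 ± 0.32 (SE, adjusted p = 0.0386) and 2.32 ± 0.32 (SE, adjusted p = 0.00152). SULT1E1 differed by 0.62 ± 0.16 (SE, adjusted p = 0.0475) and 0.89 ± 0.16 (SE, adjusted p = 0.00529), ABCG2 by 0.46 ± 0.11 (SE, adjusted p = 0.0369) and 0.58 ± 0.11 (SE, adjusted p = 0.0073), and UGT2B15 and UGT1A1 by 2.00 ± 0.46 (SE, adjusted p = 0.0195) and 0.76 ± 0.21 (SE, adjusted p = 0.0492) from FOXA1-OE tumors. MGST1 was lower in every mouse than in the control tumors, with a difference of -0.63 ± 0.20 (SE, adjusted p = 0.109).

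The count against control rested on few mice. It was 5, 3 and 2 without control tumors 1, 2 and 3, 4 without HNF4G-KO + FOXA1-OE tumor 1 and 6 without tumor 5, which stood apart in GSTP1 and NFE2L2. ABCC2 and CYP2C18 were called in each of these fits. Against control the calls of SULT1E1 (11 of 15 alternatives), CYP4F12 and SULT1C2 (11 of 16 each), AKR1B10 (9 of 16), ABCG2 (9 of 15) and AKR1C2 (8 of 16) were lost at least as often as kept. Against FOXA1-OE tumors that of UGT1A1 was lost in 9 of 15. Against FOXA1-OE tumors the count was 7 to 10 over the same kind of fits, with 8 without FOXA1-OE tumor 3 and 10 without HNF4G-KO + FOXA1-OE tumor 5. With the stroma level as a covariate 5 members were called against control and 12 against FOXA1-OE tumors.

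**Figure D3:**
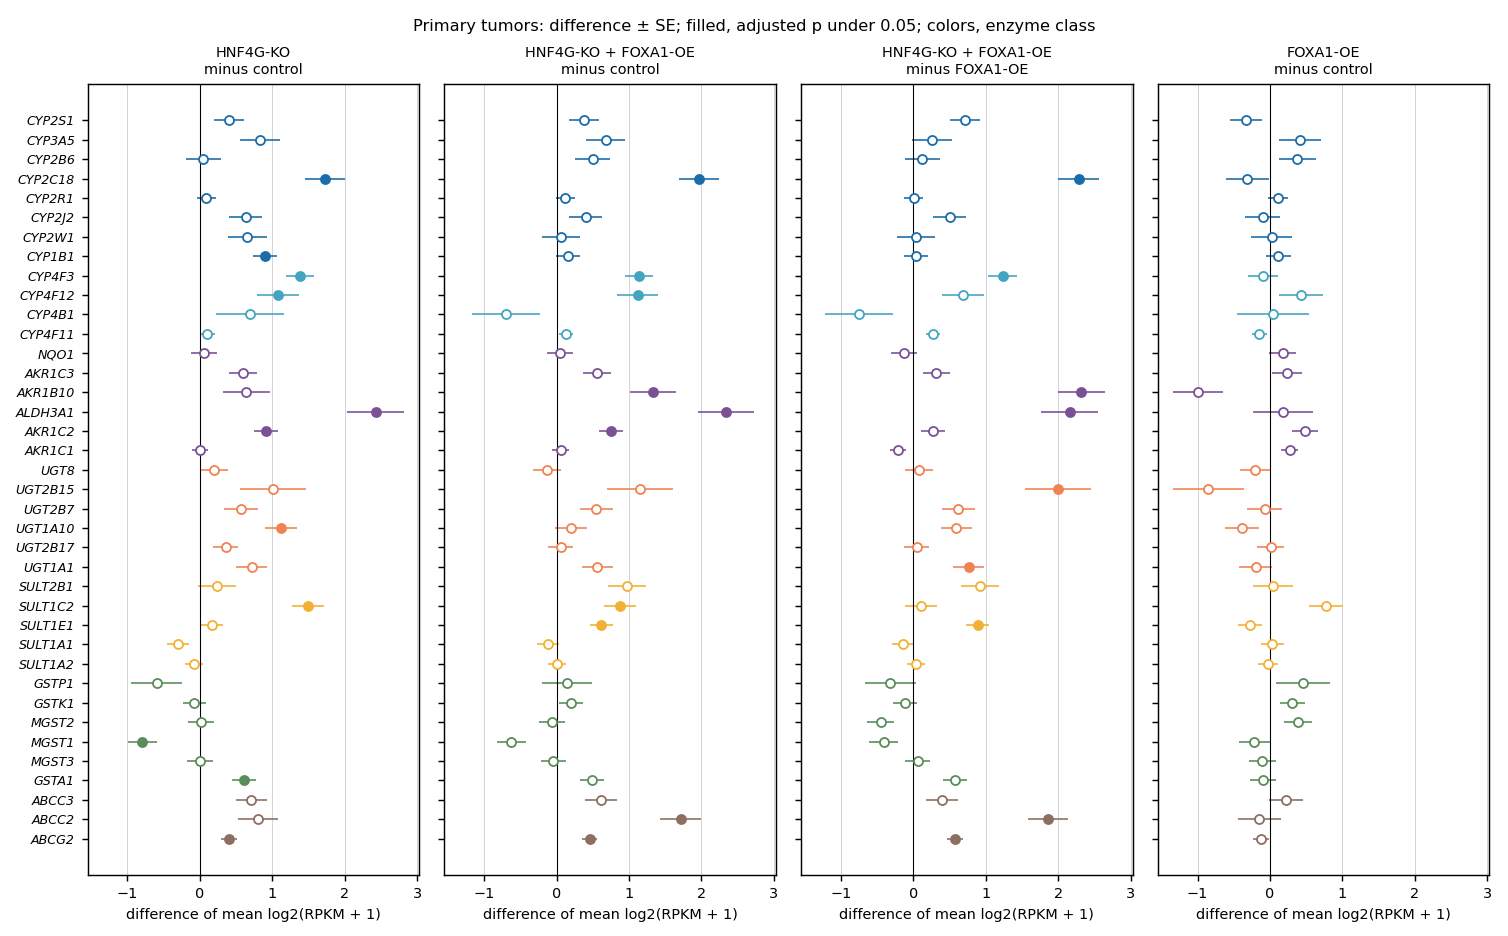
Difference of mean log2(RPKM + 1) with its SE for the 38 genes in 4 comparisons of primary tumors, colored by class; filled points passed an adjusted p of 0.05. ALDH3A1 lies farthest to the right in the left panel at 2.43, and no point is filled for FOXA1-OE against control.

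The metastases were compared with the primary tumors of the same label. Against HNF4G-KO tumors the 2 HNF4G-KO metastases had no called member (0% of all genes called), and limma-voom called none. At an unadjusted p under 0.05 there were 3 members (7.89%), against 13% of all genes. Stromal markers were higher in these samples, mainly in metastasis 2. They summed to 80.7 RPKM in metastasis 1 and 434.7 RPKM in metastasis 2, against 57.1 to 80.3 RPKM in the tumors. All 7 tested markers differed in the positive direction (median 1.39 on the log2 scale), none of them called. Whether their reads came from host or tumor cells was not tested. Their part in the values below was not tested either, except that with the stroma level as a covariate no member was called. The smallest adjusted p was that of UGT1A10, which measured 0.152 and 0.0465 RPKM in the HNF4G-KO and 0.566, 0.993, 0.917 and 0.627 RPKM in the HNF4G-KO + FOXA1-OE metastases. It had been 1.88 RPKM or more in the HNF4G-KO tumors. Its difference was -1.50 (95% confidence interval -1.96 to -1.05, adjusted p = 0.0631), and with the mouse as a replicate block, since both metastases share a mouse with a tumor, UGT1A10 was called as the 1 member past the threshold. SULT1C2 measured 2.59 and 1.47 RPKM in the HNF4G-KO and 4.29, 1.56, 2.14 and 2.92 RPKM in the HNF4G-KO + FOXA1-OE metastases. It was lower in both HNF4G-KO metastases than in all HNF4G-KO tumors, with a difference of -0.82 (95% confidence interval -1.34 to -0.31, adjusted p = 0.259). CYP3A5 measured 21.5 and 25.8 RPKM in the HNF4G-KO and 22.4, 30.1, 36.4 and 42.8 RPKM in the HNF4G-KO + FOXA1-OE metastases, and the HNF4G-KO difference was -0.74 (95% confidence interval -1.34 to -0.14, adjusted p = 0.307). In all, 6 members lay lower in both metastases than in all tumors, against 20% of all genes. All 6 glucuronosyltransferases had negative differences in this comparison, with a median of -0.41 on the log2 scale, and all 6 glutathione transferases and all 6 reductases positive ones, with medians of 0.11 and 0.25. The 2 HNF4G-KO metastases, of which metastasis 2 held the higher stroma level, were themselves unlike. CYP2C18 measured 30.7 and 12.4 RPKM in the HNF4G-KO and 30.0, 30.1, 15.0 and 42.3 RPKM in the HNF4G-KO + FOXA1-OE metastases. ABCC2 measured 7.81 and 0.493 RPKM in the HNF4G-KO and 11.03, 9.59, 3.15 and 8.93 RPKM in the HNF4G-KO + FOXA1-OE metastases. AKR1B10 measured 74.1 and 19.6 RPKM in the HNF4G-KO and 111, 53.1, 44.6 and 86.6 RPKM in the HNF4G-KO + FOXA1-OE metastases. In each of these genes HNF4G-KO metastasis 1 was higher than metastasis 2.

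Against HNF4G-KO + FOXA1-OE tumors the metastases of that label had no called member either (0.0151% of all genes), and the mouse as a replicate block left that count at 0. At an unadjusted p under 0.05 there were 4 members (10.5%), against 8.99% of all genes. Those 4 were ALDH3A1, CYP1B1, CYP4F3 and GSTA1, with differences of 0.84 (95% confidence interval 0.06 to 1.63, adjusted p = 0.543), 1.10 (95% confidence interval 0.20 to 2.00, adjusted p = 0.529), 0.52 (95% confidence interval 0.09 to 0.95, adjusted p = 0.529) and 0.50 (95% confidence interval 0.07 to 0.92, adjusted p = 0.529). CYP1B1 measured 0.651 and 1.11 RPKM in the HNF4G-KO and 0.654, 0.509, 7.51 and 1.32 RPKM in the HNF4G-KO + FOXA1-OE metastases. Metastasis 3 of the latter was the highest of all libraries. Metastases 2 and 3 were both taken from fat, and metastasis 2 was the lowest of the 4. Metastasis 3 also had the highest stromal sum of the 4, 233.5 RPKM. The 6 fat markers, of which ADIPOQ, FABP4, LEP and PLIN4 lay under the floor and nearly all of the sum was CIDEC, summed to 54.7, 40.9, 24.5 and 46.6 RPKM in these 4 metastases and to 17.9 to 53.1 RPKM in the tumors of the label. Their part in this value was not tested. ALDH3A1 measured 40.8 and 65.7 RPKM in the HNF4G-KO and 110.5, 35.1, 84.1 and 62.0 RPKM in the HNF4G-KO + FOXA1-OE metastases. CYP4F3 measured 24.2 and 16.04 RPKM in the HNF4G-KO and 25.6, 23.1, 19.9 and 36.4 RPKM in the HNF4G-KO + FOXA1-OE metastases, with metastasis 4 of the latter highest. GSTA1 measured 1.43 and 0.432 RPKM in the HNF4G-KO and 2.77, 0.508, 1.27 and 1.47 RPKM in the HNF4G-KO + FOXA1-OE metastases. With libraries of 1 mouse and kind averaged, GSTA1 was higher in every mouse with metastases than in every mouse with tumors of this label. By library, metastasis 2 (0.508 RPKM) lay below tumors 1, 2 and 5 (1.14, 0.926 and 0.720 RPKM). Without the spleen metastasis the count of called members was also 0. Stromal markers summed to 79.7 to 233.5 RPKM in these metastases and to 53.9 to 125 RPKM in the tumors of the label, with all 7 tested markers in the positive direction (median 1.10 on the log2 scale) and none called. Acinar markers summed to at most 1.05 RPKM in any metastasis.

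The other members named in the tumors were measured as follows in the metastases. Among phase I enzymes, CYP4F12 measured 10.7 and 12.4 RPKM in the HNF4G-KO and 16.4, 14.9, 7.95 and 17.2 RPKM in the HNF4G-KO + FOXA1-OE metastases. CYP2S1 measured 29.3 and 24.6 RPKM in the HNF4G-KO and 70.3, 38.3, 27.7 and 48.2 RPKM in the HNF4G-KO + FOXA1-OE metastases. AKR1C2 measured 7.67 and 7.15 RPKM in the HNF4G-KO and 9.01, 5.26, 8.05 and 10.1 RPKM in the HNF4G-KO + FOXA1-OE metastases. In CYP2S1 the spleen metastasis was the highest. NQO1 measured 200.4 and 168 RPKM in the HNF4G-KO and 185, 129.8, 137 and 155 RPKM in the HNF4G-KO + FOXA1-OE metastases. AKR1C3 measured 152 and 60.6 RPKM in the HNF4G-KO and 84.2, 63.7, 52.1 and 79.7 RPKM in the HNF4G-KO + FOXA1-OE metastases. AKR1C3 was at 152 RPKM in HNF4G-KO metastasis 1, above the 106 RPKM of the highest tumor. Among phase II enzymes, UGT1A1 measured 0.965 and 0.0821 RPKM in the HNF4G-KO and 1.66, 1.02, 0.277 and 1.32 RPKM in the HNF4G-KO + FOXA1-OE metastases. UGT8 measured 10.5 and 12.04 RPKM in the HNF4G-KO and 7.66, 9.80, 11.8 and 15.7 RPKM in the HNF4G-KO + FOXA1-OE metastases. UGT2B15 measured 6.12 and 5.93 RPKM in the HNF4G-KO and 7.55, 11.96, 12.1 and 41.9 RPKM in the HNF4G-KO + FOXA1-OE metastases. UGT2B15 was at 41.9 RPKM in HNF4G-KO + FOXA1-OE metastasis 4, against at most 17.3 RPKM in any tumor. SULT1E1 measured 0.864 and 0.117 RPKM in the HNF4G-KO and 0.713, 0.963, 0.260 and 1.60 RPKM in the HNF4G-KO + FOXA1-OE metastases. SULT2B1 measured 29.6 and 15.0 RPKM in the HNF4G-KO and 30.5, 24.4, 10.2 and 17.97 RPKM in the HNF4G-KO + FOXA1-OE metastases. Both sulfotransferases were higher in HNF4G-KO metastasis 1 than in metastasis 2. GSTP1 measured 664 and 768 RPKM in the HNF4G-KO and 779, 601, 396 and 436 RPKM in the HNF4G-KO + FOXA1-OE metastases. GSTK1 measured 28.6 and 35.8 RPKM in the HNF4G-KO and 41.1, 35.2, 23.9 and 32.7 RPKM in the HNF4G-KO + FOXA1-OE metastases. MGST1 measured 11.8 and 7.71 RPKM in the HNF4G-KO and 9.59, 9.64, 6.36 and 8.21 RPKM in the HNF4G-KO + FOXA1-OE metastases. The GSTP1 values all lay below those of the 2 tumors that stood apart. Among the transporters, ABCG2 measured 0.848 and 0.606 RPKM in the HNF4G-KO and 1.83, 0.747, 0.993 and 0.609 RPKM in the HNF4G-KO + FOXA1-OE metastases. ABCC3 measured 49.4 and 85.1 RPKM in the HNF4G-KO and 80.5, 79.8, 86.4 and 96.0 RPKM in the HNF4G-KO + FOXA1-OE metastases.

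**Figure D4:**
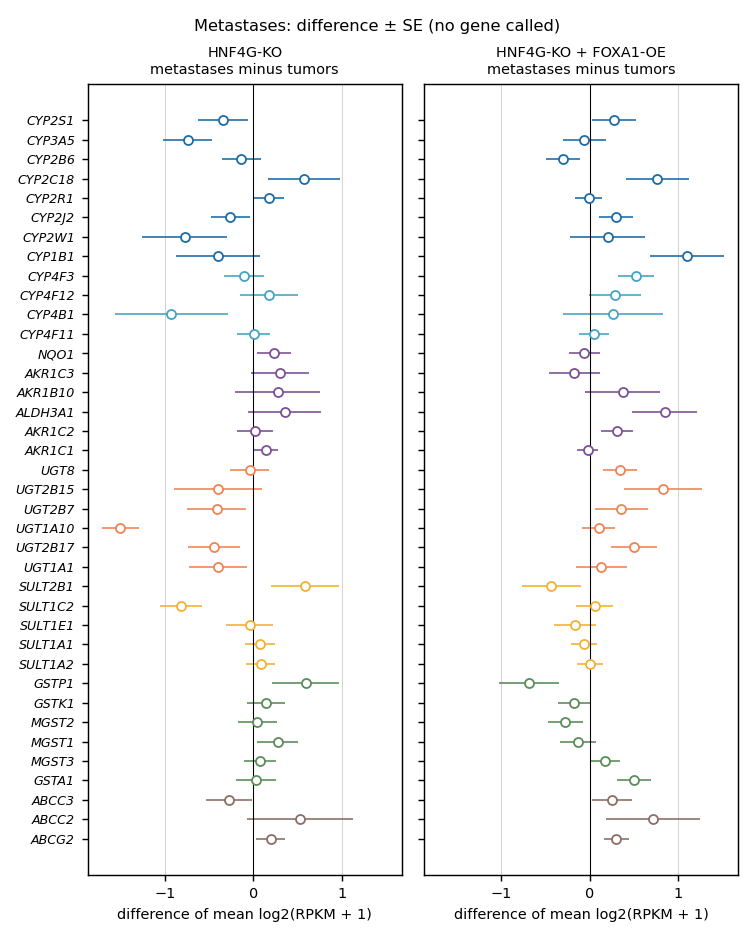
Difference of mean log2(RPKM + 1) between metastases and primary tumors with its SE for the 38 genes, for the HNF4G-KO label (left) and the HNF4G-KO + FOXA1-OE label (right); no point passed an adjusted p of 0.05. UGT1A10 lies farthest to the left at -1.50 in the left panel.

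The regulators of these genes were read in the same way. Of 13 regulators 12 were tested, as CAR (NR1I3) stayed at or below 0.12 RPKM, and 4 were called higher in HNF4G-KO than in control tumors. NR1I2, the xenobiotic receptor PXR, measured 3.82, 1.86 and 0.742 RPKM in the control tumors and 1.36, 2.46 and 0.856 in the FOXA1-OE tumors. It measured 11.1, 7.30, 6.22 and 8.40 in the HNF4G-KO tumors and 11.3, 8.61, 4.07, 6.98 and 7.38 in the HNF4G-KO + FOXA1-OE tumors. It rose by 1.66 ± 0.32 (SE, adjusted p = 0.0101) in HNF4G-KO tumors and by 1.59 ± 0.32 (SE, adjusted p = 0.0168) in HNF4G-KO + FOXA1-OE tumors against control. HNF4A measured 11.3, 9.96 and 8.49 RPKM in the control tumors and 9.13, 12.8 and 7.24 in the FOXA1-OE tumors. It measured 21.5, 14.6, 16.8 and 21.9 in the HNF4G-KO tumors and 19.98, 19.9, 15.8, 16.4 and 18.5 in the HNF4G-KO + FOXA1-OE tumors and rose by 0.84 ± 0.19 (SE, adjusted p = 0.0198). AHRR, the AHR repressor and itself an AHR target, measured 0.30, 0.189 and 0.238 RPKM in the control tumors and 0.291, 0.326 and 0.303 in the FOXA1-OE tumors. AHRR averaged 0.242 RPKM in the control tumors, under the 0.3 RPKM floor, so that the floor may have favored a positive difference. It measured 0.884, 0.662, 0.591 and 0.792 in the HNF4G-KO tumors and 0.680, 0.418, 0.490, 0.431 and 0.566 in the HNF4G-KO + FOXA1-OE tumors and rose by 0.48 ± 0.10 (SE, adjusted p = 0.0138), as did ARNT, the dimerization partner of AHR, by 0.51 ± 0.14 (SE, adjusted p = 0.0361). AHR measured 38.1, 42.5 and 25.3 RPKM in the control tumors and 54.8, 42.2 and 8.56 in the FOXA1-OE tumors. It measured 78.4, 106, 103 and 77.8 in the HNF4G-KO tumors and 50.2, 88.2, 35.5, 58.9 and 26.8 in the HNF4G-KO + FOXA1-OE tumors. All HNF4G-KO tumors lay above all control tumors, with a difference of 1.36 ± 0.48 (SE, adjusted p = 0.0878). NFE2L2 measured 21.7, 19.2 and 20.3 RPKM in the control tumors and 25.2, 21.8 and 4.93 in the FOXA1-OE tumors. It measured 30.5, 34.7, 32.8 and 27.4 in the HNF4G-KO tumors and 25.3, 28.7, 20.5, 19.2 and 9.32 in the HNF4G-KO + FOXA1-OE tumors and differed by 0.59 (95% confidence interval -0.34 to 1.52, adjusted p = 0.397). KEAP1 fell against FOXA1-OE tumors by 0.64 ± 0.16 on the log2 scale in the HNF4G-KO + FOXA1-OE tumors (SE, adjusted p = 0.0335).

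**Figure D5:**
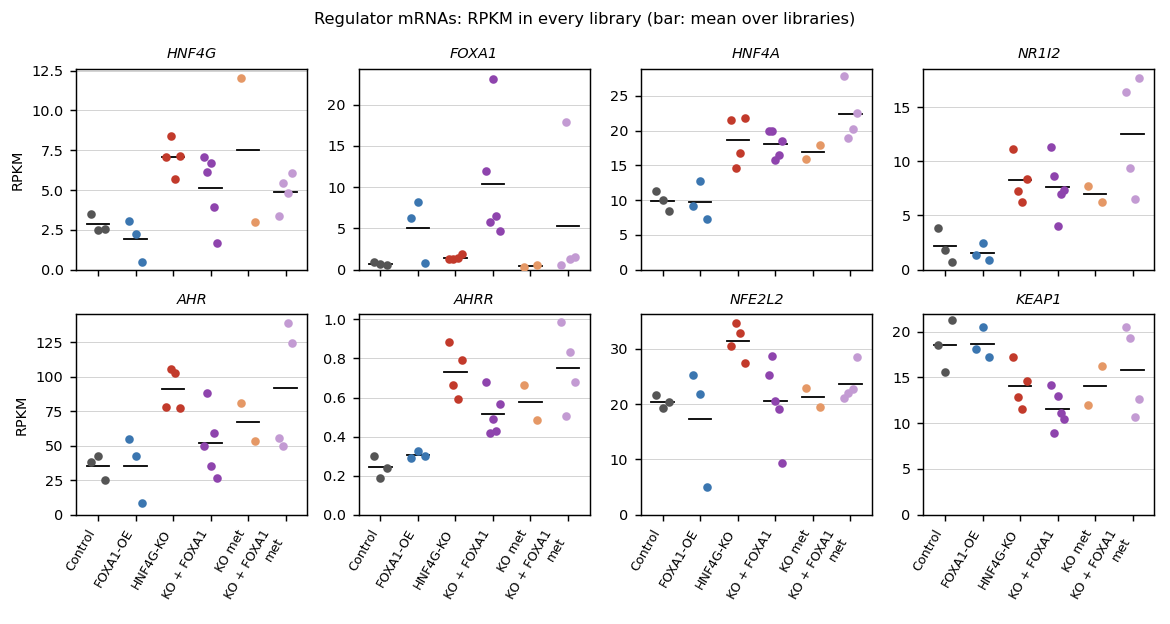
RPKM of 8 regulator mRNAs in every library, 1 point per library and 1 column per group, with a bar at the mean over libraries and axes starting at 0. HNF4G is higher in the HNF4G-KO tumors (5.72 to 8.42 RPKM) than in the control tumors (2.48 to 3.47 RPKM), and FOXA1-OE tumor 3 is low in FOXA1, AHR and NFE2L2.

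Grouped by the regulator each member is known to answer to, 2 of 3 tested AHR targets were called higher in HNF4G-KO than in control tumors (CYP1B1 and ALDH3A1, not NQO1), with a median difference of 0.90. Of the 5 AHR targets listed, CYP1A1 and UGT1A6 lay under the floor. CYP1A1 averaged 0.0215 RPKM in control and 0 in HNF4G-KO tumors, and UGT1A6 0.0239 and 0.0879 RPKM. Of 8 tested NRF2 targets 1 was called higher (AKR1C2) and 1 lower (MGST1), and of 4 tested PXR and CAR targets none was called, with medians of 0.62 and 0.76. The floor removed GSTA4 from the 9 listed NRF2 targets, and CYP2C8, CYP2C19, CYP3A4, CYP3A7 and ABCB1 from the 9 listed PXR and CAR targets. UGT1A1, among those tested, passed it only through libraries in which it was high. Among 13 further NRF2 targets that are no members, such as GCLC, GCLM, HMOX1 and TXNRD1, none was called higher and 1 lower (TALDO1), with a median of 0.09. Outside the members, 4 of 18 further phase I enzymes were called higher and 2 lower, 0 of 12 further phase II enzymes higher and 4 lower, and 3 of 10 further transporters higher and none lower. The further phase I enzymes called were ALDH3B1, FMO4, FMO5 and CES1 (higher) and MAOB and CBR3 (lower), the phase II enzymes NNMT, PAPSS2, GSTM4 and GSTZ1, and the transporters ABCB4, ABCC4 and ABCC5. Values are given for 3 of them, chosen after they were seen. The carboxylesterase CES1, which activates irinotecan among other prodrugs, rose by 1.37 ± 0.25 (SE, adjusted p = 0.00684). NNMT, which methylates nicotinamide, fell by 2.83 ± 0.45 on the log2 scale (SE, adjusted p = 0.00363), and PAPSS2, which makes the sulfate donor for the sulfotransferases, by 1.25 ± 0.28 (SE, adjusted p = 0.0176). The electron donors POR, CYB5A and CYB5R3 had no called member. In HNF4G-KO + FOXA1-OE against control tumors, 1 AHR, 3 NRF2 and 1 PXR and CAR targets were called higher and none lower. The medians were 0.16, 0.59 and 0.62, and 1.79% of all genes were called higher. Against FOXA1-OE tumors 1, 2 and 2 were called higher and none lower. There the medians were 0.04, 0.30 and 0.51, with 2.96% of all genes called higher. ABCC2 is in both the NRF2 list and the PXR and CAR list. In FOXA1-OE against control tumors none of the genes of any of these lists was called.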

How the data were processed

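The 21 HPAF-II libraries were analysed, and the 8 libraries of KPC cell lines of the series, with a table in which 12 columns belong to no sample, were not used. The deposited values are RPKM per Ensembl gene, made by the authors from a stranded mRNA kit. The processing notes name STAR 2.6.1a, featureCounts 2.0.4 and DESeq2 and the GRCh38 build, while the methods name GRCh37 and single-end reads, so that the build is uncertain and the strand setting of the counting is not given in the sources used here. Coordinates come from GENCODE 44 (GRCh38), matched by identifier for 58205 of 58719 genes. Steps of the RPKM values gave whole reads for 99.794% of the genes tested (tolerance 0.02), which gave the depth of each library, 33.1 to 69.6 M reads. Reads mostly came in steps of 2, and read numbers and limma-voom used the reads, not the steps, so that counting error may be understated. Low genes carry more counting error.

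The 19900 genes that averaged 0.3 RPKM or more were tested with limma 3.58.1 (R 4.3.3) with a trend on log2(RPKM + 1), with Benjamini-Hochberg adjustment over all of them and a threshold of 0.05. Differences on this scale understate the changes of low genes. One fit held the 4 groups of primary tumors (14 mice) and one the knockout tumors and metastases. Libraries of 1 mouse and kind were averaged, and the spread is between mice. Tumors and metastases of 1 mouse were paired by the animal number in the labels (correlation of deviations -0.0056 to 0.357 over 5 pairs), and a fit with the mouse as a block was an alternative. Every value was given for members called in any comparison or among the 2 most abundant of their class. The members and lists were chosen with earlier results of these data known. Alternatives were the pseudocount, the filter, shifted medians, libraries kept apart, a stroma covariate, limma-voom on recovered reads, fits of the groups compared alone, replicate blocks and leaving out each mouse. The fits were tested on simulated data. Windows of 50 bases of GENCODE transcripts were counted as shared where another gene held the same letters. Python 3.11.15 was used. Results of 1 regulator are not reported here.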

Additional observations from a re-analysis of the deposited data

Results flagged for a closer look

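Within groups of 4 mice, 6 of 76 tests of single members found a mouse whose gap to the nearest of the others was a larger share of the group's range than Dixon's 95% limit, where chance gives about 1 in 20 (3.8 of 76). In the HNF4G-KO tumors, tumor 1 was highest in AKR1C2 (10.2 RPKM against 6.47 to 6.58, ratio 0.9647), AKR1C1 (1.05 against 0.724 to 0.751, ratio 0.9125) and UGT2B15 (16.4 against 5.92 to 7.08, ratio 0.8318). SULT1C2 was lowest in HNF4G-KO tumor 4 (3.70 against 4.45 to 4.49 RPKM, ratio 0.9539). In the HNF4G-KO + FOXA1-OE tumors, CYP3A5 was lowest in the mouse of tumors 2 and 3 (23.3 against 39.8 to 44.5 RPKM, ratio 0.8428), and MGST1 in tumor 5 (6.08 against 7.94 to 11.4 RPKM, ratio 0.8599).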

How the results depend on the processing

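Of 30 calls of a member in a comparison, 7 stayed past the threshold under every alternative in which they were tested, and over 471 refits of these calls 345 kept the call, 126 lost it and 0 reversed. Between HNF4G-KO and control tumors 11 members were called, against 7 with a mean of at least 1 RPKM, 7 with no filter, 20 in a fit of these groups alone and 5 to 9 when 1 mouse was left out. The main fit called 1857 of all 19900 genes, and the fit of these groups alone 6150. With a mean of at least 1 RPKM it was 1736 of 14269 genes (27 members tested), and with no filter 1197 of 44505. Between HNF4G-KO + FOXA1-OE and control tumors 10 were called, against 5 with no filter, 5 with the stroma covariate, 0 in a fit of these groups alone and 2 to 8 when 1 mouse was left out. Against FOXA1-OE tumors 9 were called, 2 in a fit of these groups alone and 7 to 10 when 1 mouse was left out. Between HNF4G-KO + FOXA1-OE and HNF4G-KO tumors 0 were called, 2 with the stroma covariate and 0 to 1 when 1 mouse was left out. Between HNF4G-KO metastases and tumors 0 were called, and 1 (UGT1A10) with a pseudocount of 0.1, with a mean of at least 1 RPKM, in a fit of these groups alone, with the mouse as a replicate block and without HNF4G-KO metastasis 1, with a leave-one-out range of 0 to 1. FOXA1-OE against control, the difference of the FOXA1-OE effects and HNF4G-KO + FOXA1-OE metastases against tumors gave 0 under every alternative run. Tumor numbers only name samples (correlation of deviations -0.505 to 0.459 over 19 pairs), and a replicate block on them gave 15 members between HNF4G-KO and control, 4 between HNF4G-KO + FOXA1-OE and control and 8 against FOXA1-OE. The cause of these changes was not tested. Members under 1 RPKM rest on few reads.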
